A study of Mus musculus with 8 samples.

Results

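The loss of IL-15 was examined here across both sorted cell populations of Tax-driven tumors at once, by averaging the CD16/32HI and the CD16/32LO array of each mouse and comparing the 2 IL-15-/- mice with the 2 IL-15+/+ mice. All 4 mice carried TAX-LUC, that is, the HTLV-1 oncogene Tax under the human granzyme B promoter, which is active in cytotoxic lymphocytes, together with a luciferase reporter driven by the viral promoter. The mice came from IL-15-/- mice on C57BL/6 crossed with TAX-LUC mice on C57BL/6xFVB, and in the IL-15-/- mice a PGK-Neo cassette takes the place of a block of inner exons of Il15. Their tail tumors had arisen spontaneously, with ages of 14 months for both mice numbered replicate 1 and 12 months for both numbered replicate 2. Suspended tumor cells were blocked with an antibody to CD16/32, stained for CD16/32 and sorted into a CD16/32HI fraction, labelled as malignant large granular lymphocytes, and a CD16/32LO fraction, labelled as tumor infiltrating cells. Each mouse gave 1 Affymetrix whole-transcript array per fraction, so each genotype had 4 arrays from 2 mice. The members were the probe sets that carry exactly 1 gene symbol and whose gene lies outside the X and Y chromosomes. They numbered 20878 of the 35557 rows of the value table and stood for 19108 gene symbols, and none was removed for a low value. Values are log2 signals, and a log2 difference is always IL-15-/- minus IL-15+/+.

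IL-15 is a cytokine that neighbouring cells present to lymphocytes on the IL-15 receptor alpha chain. It signals through the shared beta chain Il2rb and the common gamma chain to Jak and Stat5, and it is known as the survival and maturation factor of natural killer (NK) cells and of memory CD8+ T cells. Mice without it have few NK cells, so transcripts of NK and CD8+ T cells serve as a reading of the lineages that depend on it. In a sorted bulk fraction, fewer cells of a type and less RNA per cell cannot be told apart.

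Several properties of the arrays bear on every result. The targeted gene could not check the labels, because the table holds 1 summarized value for Il15 and, per the study, part of its probes lie outside the replaced exons. Il15 stood at 5.40, 6.42, 5.18 and 6.88 in IL-15+/+ and 6.31, 5.45, 5.22 and 6.54 in IL-15-/- arrays, with arrays given here and below in the order CD16/32HI and CD16/32LO of replicate 1, then CD16/32HI and CD16/32LO of replicate 2 (log2 difference of -0.09, adjusted p = 0.993 from limma). Xist and 3 Y-linked genes, which are not members, split the mice by sex exactly as by genotype. Xist was at 3.92 to 4.64 in IL-15+/+ and at 10.08 to 10.75 in IL-15-/- arrays, and Eif2s3y at 9.10 to 9.47 and 2.82 to 3.36, so that sex and genotype cannot be told apart in any value below. Exactly equal values showed that the 4 arrays of replicate 1 were normalized together and the arrays of replicate 2 in 1 set per genotype. The median difference over all members was 0.12, made up of 0.002 in replicate 1 and 0.24 in replicate 2, and 73.7% of the members were higher in IL-15-/- tumors. The array medians over members were 5.78 and 5.79 in IL-15+/+ replicate 2 and 6.01 to 6.06 in all other arrays. A difference is therefore to be read against 0.12, and within a replicate against the median of that replicate. In myeloid transcripts, CD16/32HI and CD16/32LO of IL-15-/- replicate 1 ran the reverse of the other mice. The mean level of 19 probe sets of mature neutrophil genes was 10.81 in its CD16/32HI and 8.42 in its CD16/32LO array, against 7.60 to 8.28 in the CD16/32HI and 10.11 to 10.47 in the CD16/32LO arrays of the other mice. The mouse mean does not depend on which of the 2 arrays carries which label. Checked against its markers, the fraction labelled as malignant lymphocytes was not the one richer in NK transcripts. In the IL-15+/+ mice the mean level of the 26 NK genes went from 5.33 in CD16/32HI to 6.16 in CD16/32LO for replicate 1 and from 5.14 to 6.10 for replicate 2. In the IL-15-/- mice the corresponding levels were 4.90 and 4.95 for replicate 1, then 4.83 and 5.12 for replicate 2. The table gives no detection call, so it does not say which of these values lie above background.

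Of the 20878 members, 33 were called between the genotypes by limma on the mouse means (Benjamini-Hochberg adjusted p under 0.05). The 10 that rose in IL-15-/- tumors were 0.0479% of the members and the 23 that fell were 0.11%. At an unadjusted p under 0.05 there were 1023, of which 837 were higher. All 33 differed in the same direction in both replicates, which was largely built into the call because it used the same mouse means. In both labelled populations 31 did so, with Il1a and Egln3 as the exceptions. These exceptions rest on the arrays of IL-15-/- replicate 1, whose myeloid transcripts ran opposite to its labels, and without that mouse, a comparison chosen after seeing the data, all 33 differed in the same direction in both populations. The number of calls depended on the scaling and on how the spread was modelled. With each array centred on its median, 3 genes were called, Gzma, Nkg7 and BC018473, all lower, and with quantile normalization 11 were called, of which Mmp9 alone was higher. With all 8 arrays and the mouse as a random block 0 genes were called, as with a one-way model without moderated variance after adjustment, and with the replicate number as a block 138 were called higher and 68 lower. The 33 kept their direction under every alternative in which they were tested. All alternatives reused these arrays or a part of them, so this is no independent check. Leaving out the IL-15-/- mouse of replicate 1, whose arrays ran opposite to the others, gave 76 genes higher and 23 lower, 27 of the 33 among them, and leaving out the IL-15+/+ mouse of replicate 1 gave 112 higher and 44 lower, all 33 among them. Without the IL-15+/+ mouse of replicate 2 the counts were 11 and 36, with 24 of the 33 among them, and leaving out IL-15-/- replicate 2 gave 13 and 30 calls, with 23 of the 33 among them. A second, test-free reading asked in which members all 4 IL-15-/- arrays lay on 1 side of all 4 IL-15+/+ arrays. That was so for 665 members with higher (3.19%) and 89 with lower IL-15-/- arrays (0.426%), a split of 88.2% higher that became 52.6% higher after centring (324 and 292 members) and 42.7% after quantile normalization (232 and 311 members). In all 3 scalings the arrays were separated for 153 members on the higher and 60 on the lower side. Of the 33 called genes, 3 of the 10 higher and 14 of the 23 lower ones were separated in this way, all 17 in all 3 scalings.

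**Figure D1:**
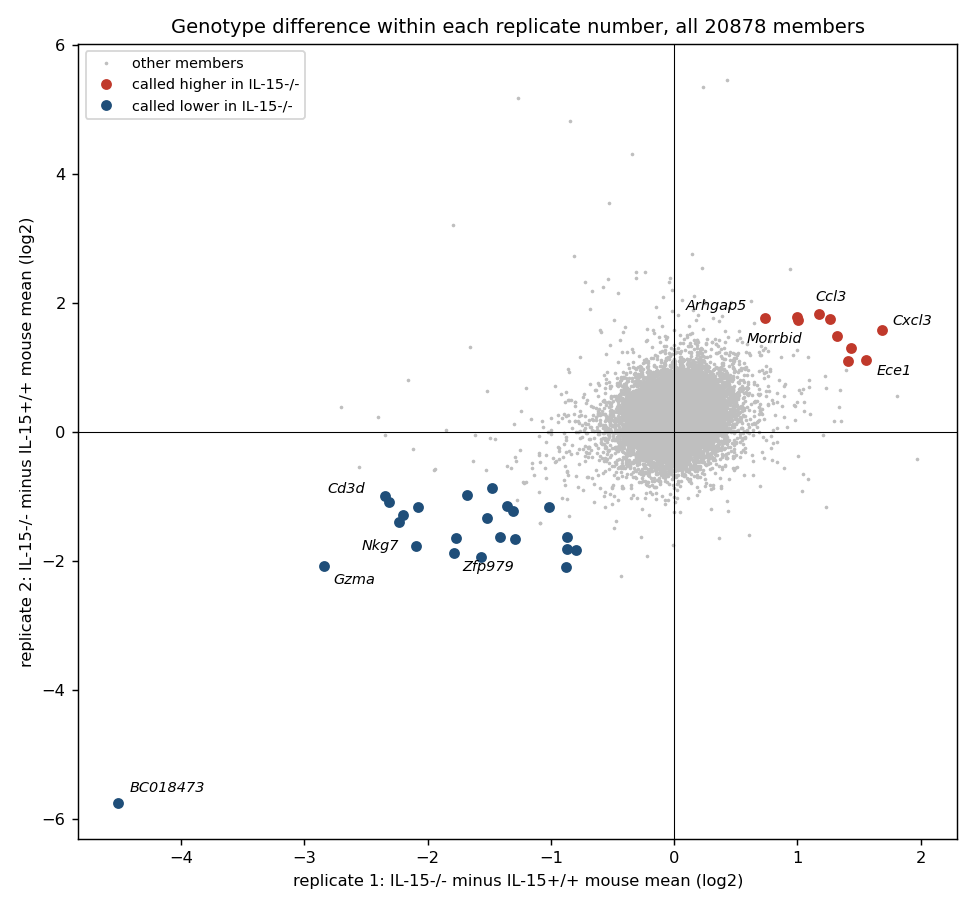
Log2 difference between the IL-15-/- and the IL-15+/+ mouse of replicate 1 (x axis) and of replicate 2 (y axis), 1 point per member, with the 10 genes called higher in red and the 23 called lower in blue. BC018473 lies alone at -4.51 and -5.75, and the grey cloud is centred near 0 on the x axis and near 0.24 on the y axis.

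Of the 23 genes that fell, 11 were on the lists of NK cell or T cell genes. Of the 26 measured NK cell genes 6 were called lower (0.11% of all members) and 0 higher, 7 had every IL-15-/- array below every IL-15+/+ array (0.426% of all members), and 22 were lower, with a median log2 difference of -0.56 against 0.12 over all members. The mean level of the list was 5.74 and 5.62 in the IL-15+/+ mice and 4.93 and 4.97 in the IL-15-/- mice. Gzma, which encodes the granule protease granzyme A of killer lymphocytes, read 5.46, 8.80, 5.31 and 7.37 in IL-15+/+ arrays and 4.02, 4.57, 4.13 and 4.37 in IL-15-/- arrays. The highest IL-15-/- array thus lay 0.74 below the lowest IL-15+/+ array, and the IL-15+/+ CD16/32LO arrays stood well above their CD16/32HI partners. The mouse means averaged 6.73 ± 0.56 and 4.27 ± 0.03 (SD, n = 2 mice), and Gzma was 5.5-fold lower (log2 difference of -2.46, SE 0.25, adjusted p = 7.99e-05 from limma). Nkg7, a membrane protein of cytotoxic granules, was at 6.61, 8.51, 6.12 and 8.58 in IL-15+/+ and 5.68, 5.26, 5.02 and 6.13 in IL-15-/- arrays and was 3.82-fold lower (log2 difference of -1.93, SE 0.22, adjusted p = 0.000288). There the IL-15-/- CD16/32LO array of replicate 2 lay just above the lowest IL-15+/+ array, so the groups touched. Xcl1, the chemokine with which NK and CD8+ T cells attract Xcr1-bearing dendritic cells, was flat in IL-15-/- tumors at 5.89, 5.89, 5.73 and 5.99 and ran to 8.79 in IL-15+/+ tumors, 0.54 apart at the nearest arrays (log2 difference of -1.76, SE 0.22, adjusted p = 0.0012).

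The promoters of the 4 NK and T cell genes with the lowest adjusted p are shown because these genes fell together. Each is a RefSeq window of 300 bases, 250 before to 50 after the start of the gene, in build GRCm38.p6, and capitals mark matches to the T-box motif AGGTGTGA or the Runx motif TGTGGTT on either strand, where AACCACA is the Runx motif read on the opposite strand. The windows are those of Gzma (chr13:113100932-113101231, minus strand), Nkg7 (chr7:43436888-43437187, plus strand), Xcl1 (chr1:164935473-164935772, minus strand) and Cd3g (chr9:44980382-44980681, minus strand).
Gzma: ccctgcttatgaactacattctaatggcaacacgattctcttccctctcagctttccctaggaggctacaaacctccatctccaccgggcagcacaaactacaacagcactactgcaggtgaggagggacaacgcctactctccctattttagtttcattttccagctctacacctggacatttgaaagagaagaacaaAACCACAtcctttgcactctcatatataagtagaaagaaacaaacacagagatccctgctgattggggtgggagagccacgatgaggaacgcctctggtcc
Nkg7: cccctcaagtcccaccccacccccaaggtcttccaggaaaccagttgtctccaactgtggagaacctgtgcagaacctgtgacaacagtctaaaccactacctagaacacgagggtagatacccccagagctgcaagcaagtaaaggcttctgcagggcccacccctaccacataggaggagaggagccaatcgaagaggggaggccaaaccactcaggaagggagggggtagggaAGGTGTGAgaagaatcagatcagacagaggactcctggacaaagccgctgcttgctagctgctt
Xcl1: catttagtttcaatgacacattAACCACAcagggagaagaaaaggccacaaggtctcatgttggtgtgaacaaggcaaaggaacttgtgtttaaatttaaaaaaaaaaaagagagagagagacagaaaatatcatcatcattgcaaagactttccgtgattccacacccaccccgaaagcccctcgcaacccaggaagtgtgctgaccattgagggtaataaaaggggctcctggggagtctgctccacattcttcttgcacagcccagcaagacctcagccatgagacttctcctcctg
Cd3g: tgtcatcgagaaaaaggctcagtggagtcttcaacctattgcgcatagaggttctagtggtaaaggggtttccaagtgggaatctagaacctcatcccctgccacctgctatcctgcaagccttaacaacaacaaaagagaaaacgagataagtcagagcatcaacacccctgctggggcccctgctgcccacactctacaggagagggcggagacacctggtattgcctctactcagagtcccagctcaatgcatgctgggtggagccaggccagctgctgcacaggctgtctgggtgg
T-box factors such as Eomes and Runx factors are known regulators of NK and CD8+ T cell genes. Of the 11 called NK and T cell genes 9 had a window, 10 windows in all. The T-box motif was in 1 of the 10 (Nkg7) and in 1.28% of all 32851 windows, the Runx motif in 3 (Gzma, Xcl1 and Klrk1) and in 5.27% of all windows. The Ets-type motif CCGGAAG and the NF-kB consensus were in 0 of the 10, against 8.86% and 8.46% of all windows. The Cd3g window held none of the motifs.

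The lectin-like receptors of NK cells lie side by side on chromosome 6, and 3 of them fell. Klrd1 (CD94), the partner of the NKG2 receptors, stood at 7.76, 8.72, 7.87 and 9.37 in IL-15+/+ and 6.26, 6.68, 7.04 and 6.92 in IL-15-/- arrays, with a gap of 0.72 between the genotypes (log2 difference of -1.71, SE 0.24, adjusted p = 0.00245). Klrc1, the inhibitory receptor NKG2A, was at 4.24, 6.71, 3.80 and 6.03 in IL-15+/+ and 3.46, 3.34, 3.29 and 4.21 in IL-15-/- arrays and its highest IL-15-/- array, CD16/32LO of replicate 2, overlapped the low end of IL-15+/+ (log2 difference of -1.62, SE 0.24, adjusted p = 0.00398). Klrk1, the activating receptor NKG2D, was separated by 0.27 (log2 difference of -1.27, SE 0.22, adjusted p = 0.0152). No protein-coding gene lies between Klrd1 and Klrk1 in the reference gene table, and 2 lie between Klrk1 and Klrc1. Klri2 and Klra8 of the same cluster were not called but also had every IL-15-/- array below every IL-15+/+ array, with log2 differences of -1.0 and -0.69. Probe sets of this family can share sequence with their close relatives, so their values are uncertain as readings of single genes. Eomes, the T-box factor of NK cells, was lower in each IL-15-/- array as well, at 5.54 to 6.34 in IL-15+/+ and 4.65 to 5.39 in IL-15-/- arrays (log2 difference of -0.81, SE 0.22, adjusted p = 0.361).

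Other NK genes were not called. Gzmb, granzyme B, whose human promoter drives Tax in these mice, read 6.18, 8.29, 4.87 and 6.43 in IL-15+/+ and 4.50, 4.85, 4.81 and 5.40 in IL-15-/- arrays. It was high in the IL-15+/+ mouse of replicate 1, differed by -2.56 in replicate 1 and -0.54 in replicate 2, and was not called (adjusted p = 0.107). Prf1, the pore protein perforin, had a log2 difference of -0.17, and Tbx21, the factor T-bet, one of -0.16. Il18rap, an IL-18 receptor chain that neutrophils also express, had one of -0.12. Il2rb, the beta chain through which IL-15 signals, was at 5.18 to 6.66 in IL-15+/+ and 4.82 to 5.94 in IL-15-/- arrays, with overlapping genotypes (log2 difference of -0.59, adjusted p = 0.891).

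Of 30 measured T cell genes 5 were called lower (0.11% of all members) and 0 higher, 4 had every IL-15-/- array below every IL-15+/+ array (0.426% of all members), and 28 were lower, with a median of -0.35. Cd3g and Cd3d, adjacent genes on chromosome 9 that encode chains of the CD3 complex, both fell. Cd3g read 7.24, 9.60, 6.77 and 9.62 in IL-15+/+ and 6.55, 5.83, 5.79 and 7.79 in IL-15-/- arrays (log2 difference of -1.82, SE 0.24, adjusted p = 0.00161), and Cd3d read 7.19, 8.87, 5.61 and 8.67 in IL-15+/+ and 6.46, 4.92, 5.22 and 7.06 in IL-15-/- arrays (log2 difference of -1.67, SE 0.27, adjusted p = 0.00797). In both genes the IL-15-/- CD16/32LO array of replicate 2 lay above the IL-15+/+ CD16/32HI array of the same replicate, so the genotypes overlapped. Cd3e, the third gene of the complex, had a log2 difference of -0.46 and was not called. The coreceptor chain Cd8b1 was 2.78-fold lower (log2 difference of -1.48, SE 0.22, adjusted p = 0.00437), and its 4 IL-15-/- arrays lay between 5.18 and 5.44, all under the lowest IL-15+/+ array at 5.72. Cd8a showed the same order of arrays, at 5.70 to 7.47 in IL-15+/+ and 5.53 to 5.63 in IL-15-/- arrays, but was not called (log2 difference of -0.99, adjusted p = 0.133). Cd4 did not have this order, with 5.49 to 6.19 in IL-15+/+ and 5.33 to 6.50 in IL-15-/- arrays and a log2 difference of 0.01. Ctla2a, a cathepsin inhibitor made by activated T cells, fell (log2 difference of -1.74, SE 0.25, adjusted p = 0.00309), as did Gimap4 (log2 difference of -1.70, SE 0.26, adjusted p = 0.00517) and Gimap7 (log2 difference of -1.26, SE 0.22, adjusted p = 0.0149), neighbouring genes for GTPases of lymphocytes on chromosome 6. Thy1, a surface protein of T cells that fibroblasts also carry, was at 6.57, 8.46, 6.71 and 9.09 in IL-15+/+ and 6.25, 6.25, 6.49 and 7.22 in IL-15-/- arrays and missed the threshold (adjusted p = 0.0763). The differences of the called lymphocyte genes were larger in the arrays labelled CD16/32LO, for Gzma -3.61 against -1.31, for Nkg7 -2.85 against -1.02 and for Cd3g -2.80 against -0.83. Without IL-15-/- replicate 1 these values were -3.71 against -1.25, -2.41 against -1.35 and -1.82 against -1.22. In the test of that difference between populations, by limma, 0 members passed after adjustment and 545 did at an unadjusted p under 0.05, while 2812 passed after adjustment without the IL-15-/- mouse of replicate 2. That count sets only the IL-15-/- mouse of replicate 1, whose arrays ran the reverse of the others, against the IL-15+/+ mice, and leaving out any other mouse gave 0.

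**Figure D2:**
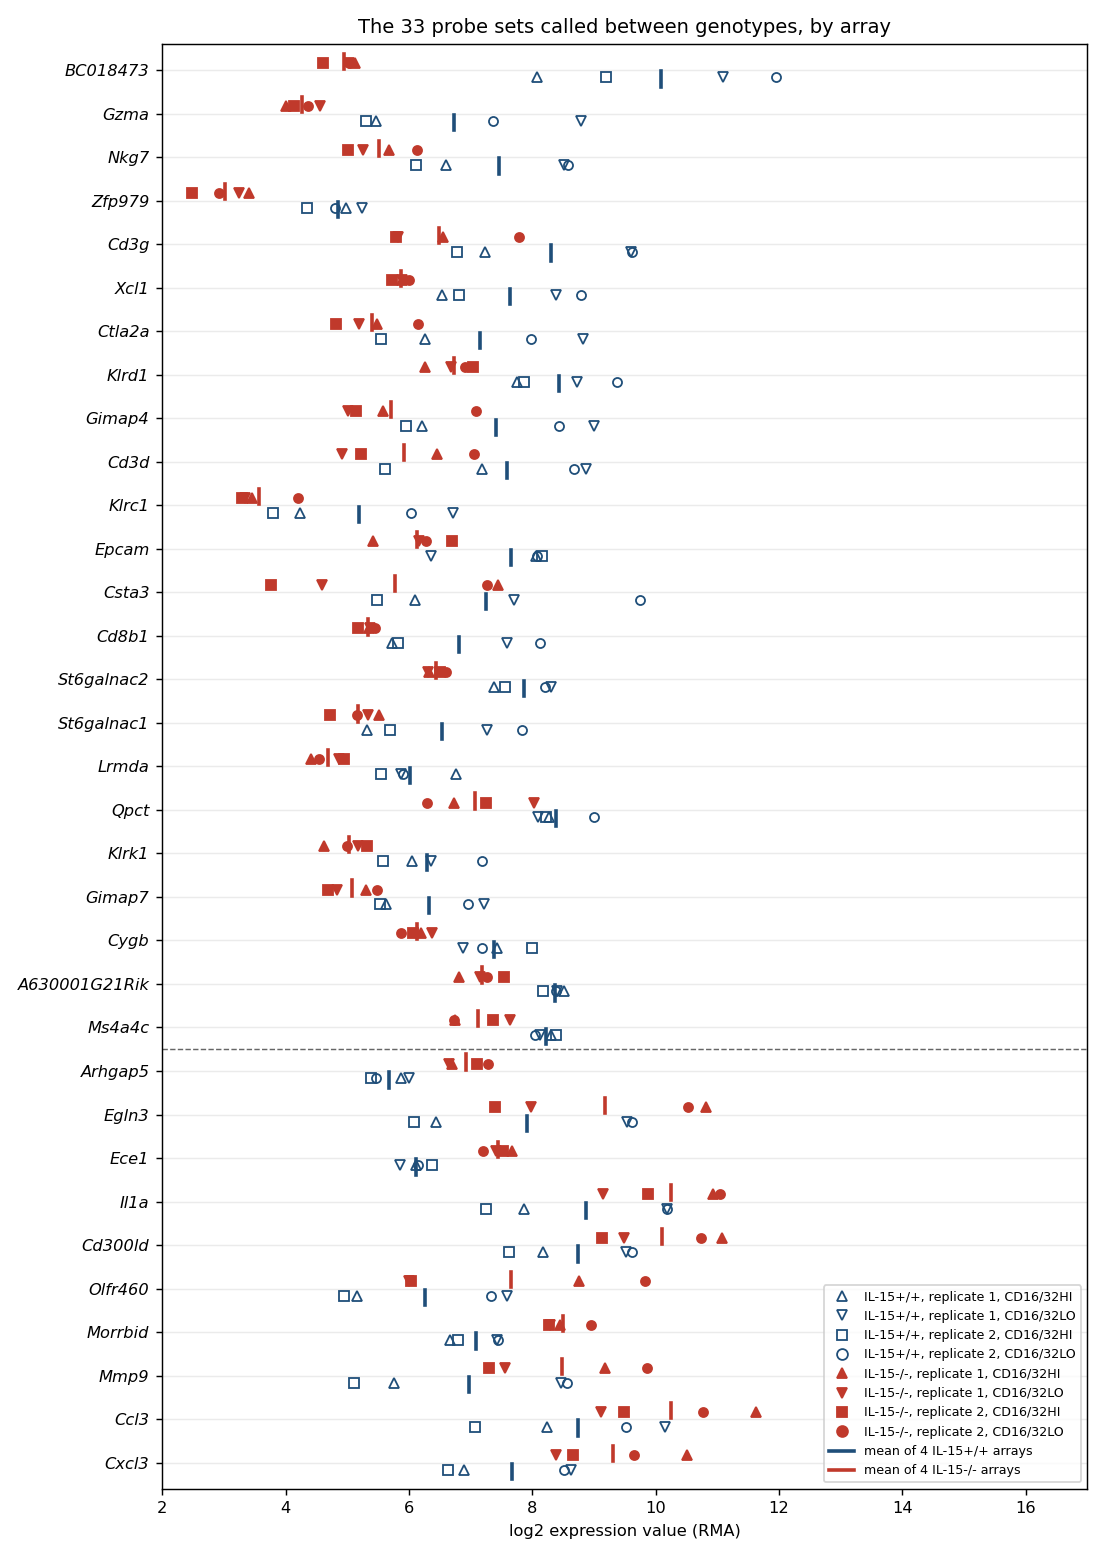
Log2 value of the 33 called probe sets in each of the 8 arrays, open blue for IL-15+/+ and filled red for IL-15-/-, with a bar at the mean of the 4 arrays of each genotype and a dashed line between the 23 genes that fell (above) and the 10 that rose (below). The red and blue arrays of BC018473 lie 2.96 apart, while those of Il1a, Ccl3 and Mmp9 overlap.

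The widest separation of all members, in the deposited scaling, was in BC018473, a long non-coding RNA gene on chromosome 11. Its IL-15+/+ arrays read 8.08, 11.09, 9.19 and 11.95 and its IL-15-/- arrays 5.12, 5.03, 4.62 and 5.04. It was high in every IL-15+/+ array, more so in CD16/32LO, and low in every IL-15-/- array, a gap of 2.96 and a 35-fold difference of the means (log2 difference of -5.13, SE 0.27, adjusted p = 1.89e-09). The sialyltransferase genes St6galnac2 and St6galnac1 lie on either side of it with no protein-coding gene between in the reference gene table, and Cygb, the haem protein cytoglobin, follows St6galnac2 with 1 gene between. All 4 fell. St6galnac2 was at 7.39, 8.30, 7.55 and 8.21 in IL-15+/+ and 6.33, 6.31, 6.51 and 6.60 in IL-15-/- arrays (log2 difference of -1.42, SE 0.22, adjusted p = 0.00517), Cygb at 6.88 to 8.0 in IL-15+/+ and 5.87 to 6.37 in IL-15-/- arrays (log2 difference of -1.25, SE 0.23, adjusted p = 0.0282) and St6galnac1 at 5.33 to 7.83 in IL-15+/+ and 4.72 to 5.52 in IL-15-/- arrays (log2 difference of -1.35, SE 0.24, adjusted p = 0.0192). The arrays of St6galnac2 and Cygb were separated, by 0.79 and 0.51, and those of St6galnac1 overlapped. Among the 90 genes that were called or had a gap of at least 0.2, 20 neighbouring pairs had no more than 10 protein-coding genes between them. Of these pairs 17 ran in the same direction. The pairs are not independent, since several come from the stretch around BC018473 or from the lectin-like receptors, and no share was computed for genes lying apart.

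A stretch of chromosome 1 ran in both directions. A630001G21Rik, a protein-coding gene without a descriptive name, fell, from 8.51, 8.41, 8.17 and 8.39 in IL-15+/+ arrays to 6.82, 7.15, 7.54 and 7.27 in IL-15-/- arrays (log2 difference of -1.18, SE 0.23, adjusted p = 0.0402). The non-coding gene A530040E14Rik was lower in each IL-15-/- array, with a gap of 0.35. A530032D15Rik, which overlaps it in the reference gene table, was instead higher in each, with a gap of 0.39. It was at 6.32 to 7.07 in IL-15+/+ and 7.46 to 7.94 in IL-15-/- arrays. A second probe set of A530032D15Rik ran the other way, at 8.54 to 9.43 in IL-15+/+ and 8.16 to 8.53 in IL-15-/- arrays, so the probe sets of this gene disagree. Neither gene was called (log2 differences of -1.25 and 1.09, adjusted p = 0.132 and 0.0763). The signal of overlapping genes depends on the strand and position of their probes, which were not used here, so these values are uncertain. On the same chromosome Slamf7, a receptor of NK cells and of activated myeloid and plasma cells, was at 7.53 to 8.40 in IL-15+/+ and 6.43 to 7.20 in IL-15-/- arrays without a call (adjusted p = 0.107).

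The other genes that fell belong to no one group. Zfp979, a zinc finger gene on chromosome 4, was low throughout, at 4.98, 5.25, 4.35 and 4.81 in IL-15+/+ and 3.41, 3.24, 2.49 and 2.92 in IL-15-/- arrays, and separated by 0.94 (log2 difference of -1.83, SE 0.25, adjusted p = 0.00227). Lrmda, named for melanocyte differentiation, was at 6.77, 5.87, 5.55 and 5.91 in IL-15+/+ and 4.41, 4.86, 4.95 and 4.54 in IL-15-/- arrays (log2 difference of -1.33, SE 0.24, adjusted p = 0.0174), and Ms4a4c, a four-span membrane protein, was at 8.05 to 8.39 in IL-15+/+ and 6.73 to 7.64 in IL-15-/- arrays (log2 difference of -1.09, SE 0.22, adjusted p = 0.0499). Epcam, an adhesion molecule of epithelium that some dendritic cells also carry, was at 8.06, 6.35, 8.15 and 8.08 in IL-15+/+ and 5.41, 6.16, 6.70 and 6.28 in IL-15-/- arrays. The IL-15+/+ CD16/32LO array of replicate 1 lay among the IL-15-/- arrays (log2 difference of -1.52, SE 0.29, adjusted p = 0.0282). Of the 18 probe sets of the keratinocyte and epithelium list Epcam alone was called, and the list's median was 0.07. Cdh1, E-cadherin, of the same list was higher in each IL-15-/- array, with a gap of 0.096. That gap was 0.009 after centring, and the genotypes overlapped after quantile normalization. Qpct, an enzyme that modifies N-terminal glutamine, was separated by 0.05 (log2 difference of -1.31, SE 0.25, adjusted p = 0.0296). Csta3, a cysteine protease inhibitor of myeloid cells, overlapped widely between genotypes, at 6.09, 7.70, 5.49 and 9.74 in IL-15+/+ and 7.45, 4.59, 3.77 and 7.27 in IL-15-/- arrays (log2 difference of -1.49, SE 0.26, adjusted p = 0.0149).

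Among the 10 genes that rose, 3 did so in every array. Morrbid, a long non-coding RNA known to keep short-lived myeloid cells alive by repressing its neighbour Bcl2l11, read 6.67, 7.43, 6.80 and 7.45 in IL-15+/+ and 8.45, 8.29, 8.27 and 8.96 in IL-15-/- arrays through 1 of its 2 probe sets. Every IL-15-/- array was at least 0.82 above every IL-15+/+ array, and the gene was 2.65-fold higher (log2 difference of 1.40, SE 0.22, adjusted p = 0.00596). Its other probe set was not called, with log2 differences of 0.13 in replicate 1 and 0.14 in replicate 2. Bcl2l11, the death gene BIM, had a log2 difference of 0.05 (7.62 to 8.30 in IL-15+/+ and 7.67 to 8.35 in IL-15-/- arrays, adjusted p = 0.993). Ece1, the protease that activates endothelin, had the widest gap on the higher side in the deposited scaling, at 6.11, 5.85, 6.37 and 6.14 in IL-15+/+ and 7.67, 7.41, 7.53 and 7.20 in IL-15-/- arrays, a gap of 0.83 (log2 difference of 1.33, SE 0.22, adjusted p = 0.0115). Arhgap5, a GTPase-activating protein, was at 5.87, 6.0, 5.39 and 5.46 in IL-15+/+ and 6.71, 6.64, 7.11 and 7.28 in IL-15-/- arrays (log2 difference of 1.25, SE 0.25, adjusted p = 0.0445). After centring and after quantile normalization the gap of Arhgap5 (0.64 and 0.70) was wider than that of Ece1 (0.59 and 0.41). By label, the difference was 1.62 in CD16/32HI and 1.19 in CD16/32LO arrays for Morrbid, 1.36 and 1.31 for Ece1, and 1.28 and 1.23 for Arhgap5, all of them positive without IL-15-/- replicate 1 as well.

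The other 7 genes that rose were separated in no such way, and they followed the split between the 2 arrays of each mouse. Il1a, which encodes the inflammatory cytokine IL-1alpha, read 7.86, 10.19, 7.26 and 10.19 in IL-15+/+ and 10.93, 9.14, 9.88 and 11.04 in IL-15-/- arrays (log2 difference of 1.37, SE 0.23, adjusted p = 0.0128). In IL-15+/+ mice it was over 2 units higher in CD16/32LO, and the IL-15-/- arrays were high where the neutrophil transcripts were. By label its difference was 2.84 in CD16/32HI and -0.11 in CD16/32LO, and without IL-15-/- replicate 1 it was 2.32 and 0.84. Its relative Il1b, with 10.79 to 12.45 in IL-15+/+ and 11.80 to 12.75 in IL-15-/- arrays, was not called (log2 difference of 0.56, adjusted p = 0.938). Cxcl3, a chemokine for neutrophils, was 3.1-fold higher and read 6.90, 8.63, 6.64 and 8.52 in IL-15+/+ and 10.51, 8.39, 8.66 and 9.65 in IL-15-/- arrays (log2 difference of 1.63, SE 0.22, adjusted p = 0.00227). Here the lowest IL-15-/- array, at 8.39, was under the IL-15+/+ CD16/32LO arrays alone, and Cxcl2, a related chemokine for neutrophils, was not called (log2 difference of 1.13, adjusted p = 0.107). Ccl3, which attracts monocytes and T cells, read 8.23, 10.15, 7.08 and 9.52 in IL-15+/+ and 11.62, 9.12, 9.49 and 10.77 in IL-15-/- arrays (log2 difference of 1.51, SE 0.26, adjusted p = 0.0149). Mmp9, the gelatinase of neutrophil granules, was at 5.75, 8.46, 5.12 and 8.56 in IL-15+/+ and 9.18, 7.56, 7.30 and 9.86 in IL-15-/- arrays (log2 difference of 1.5, SE 0.22, adjusted p = 0.00398). Cd300ld, a receptor of myeloid cells, rose by 1.37, and Olfr460, an olfactory receptor gene, by 1.39 (adjusted p = 0.0107 and 0.0128). Both were higher in IL-15+/+ CD16/32LO than in CD16/32HI arrays.

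Part of the mature neutrophil transcripts rose with these genes, and Mmp9 belongs both to these genes and to the list. Of 19 mature neutrophil genes Mmp9 was called, against 0.0479% of all members called higher. A total of 14 were higher, a share like the 73.7% of all members. The median was 0.69, against 0.12 over all members, with 0.53 in replicate 1 and 0.53 in replicate 2. The list's mean level was 9.05 and 8.88 in the IL-15+/+ mice and 9.62 and 9.38 in the IL-15-/- mice, and no gene of it had its arrays separated. S100a8 and S100a9, the calcium-binding proteins that fill neutrophil cytoplasm, had log2 differences of -0.44 and -0.23. Lcn2, Hdc, Csf3r and Mmp8 of the same list stood at -0.20, -0.14, -0.002 and 0.06. Clec4e, a receptor for microbial glycolipids, had a log2 difference of 1.33 (adjusted p = 0.0763) and Acod1, which makes itaconate, one of 0.99. Genes of neutrophil precursors had a median of -0.07 with 11 of 18 lower. The part of neutrophil content in the rise of the 7 genes was not tested. Among 29 probe sets of NF-kB target genes, Il1a, Ccl3 and Cxcl3 were called, against 0.0479% of all members called higher. All 3 are among the 7 genes above. A total of 25 were higher, against 73.7% of all members, and the median was 0.47. Tnf stood at 8.43, 8.15, 7.34 and 8.25 in IL-15+/+ and 9.19, 8.37, 9.16 and 8.73 in IL-15-/- arrays and Nfkbia, the inhibitor of NF-kB that is itself a target, at 7.69, 7.96, 7.67 and 8.12 in IL-15+/+ and 8.75, 8.05, 9.07 and 8.69 in IL-15-/- arrays. Neither was called (log2 differences of 0.82 and 0.78). Sod2 was the only target with separated arrays, by 0.03, and none was separated after centring or quantile normalization.

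**Figure D3:**
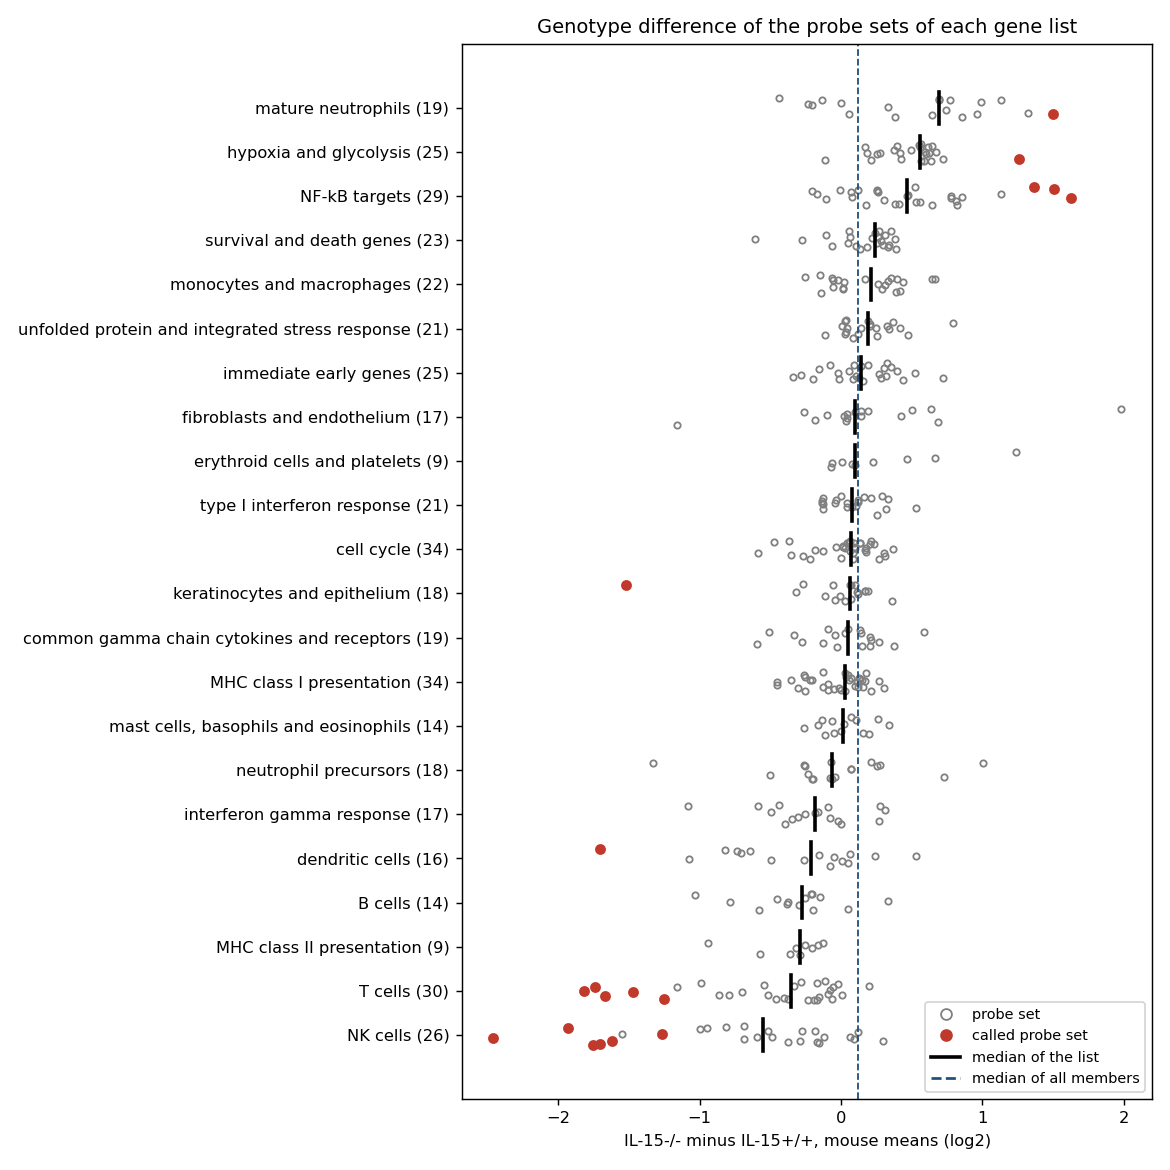
Log2 difference between genotypes of every probe set in each of the 22 gene lists (number of probe sets in brackets), with called probe sets in red, the median of each list as a black bar and the median of all members, 0.12, as a dashed line. NK cell and T cell genes lie lowest, with medians of -0.56 and -0.35, and mature neutrophil, hypoxia and NF-kB target genes highest.

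Genes of hypoxia and glycolysis had the most separated probe sets of the 22 lists in the deposited scaling, though fewer than the NK list after centring (7 against 9) and after quantile normalization (3 against 9). These genes are targets of the hypoxia-inducible factor HIF-1 or enzymes that turn glucose into lactate, and they rise in cells short of oxygen or with high glycolytic flux. Of the 25 probe sets 24 were higher in IL-15-/- tumors, against 73.7% of all members. Every IL-15-/- array was above every IL-15+/+ array in 12 (of 10 genes), against 3.19% of all members, and 1 was called, against 0.0479%. The median was 0.56, 0.43 in replicate 1 and 0.61 in replicate 2, and 0.48 and 0.34 by label in CD16/32HI and CD16/32LO (0.54 and 0.42 without IL-15-/- replicate 1). The 12 became 7 after centring and 3 after quantile normalization, and Ldha and Pfkl, an isoform of phosphofructokinase, were separated in all 3 scalings. Ldha, lactate dehydrogenase, read 9.17, 9.09, 8.71 and 9.16 in IL-15+/+ and 9.55, 9.75, 9.73 and 9.69 in IL-15-/- arrays. Every IL-15-/- array was thus at least 0.37 higher, with no order between the populations (log2 difference of 0.65, SE 0.22, adjusted p = 0.716). Hk2, the inducible hexokinase, was separated by 0.18 at 7.03 to 7.34 in IL-15+/+ and 7.52 to 8.35 in IL-15-/- arrays, and Pdk1, the kinase that closes pyruvate's path into mitochondria, by 0.08 at 6.51 to 7.27 in IL-15+/+ and 7.35 to 7.73 in IL-15-/- arrays. Hif1a, the oxygen-regulated subunit of HIF-1, was separated by less than 0.01 at 10.37 to 10.91 in IL-15+/+ and 10.91 to 11.06 in IL-15-/- arrays, and Aldoa, P4ha1 and 1 of the 2 probe sets each of Bnip3 and Pkm by less than 0.1. Pgam1, a mutase of glycolysis, was separated in all 3 of its probe sets, of which 2 hold the same values. Egln3, a prolyl hydroxylase that limits HIF and is itself induced by it, was the called one, at 6.44, 9.53, 6.09 and 9.62 in IL-15+/+ and 10.81, 7.98, 7.39 and 10.52 in IL-15-/- arrays (log2 difference of 1.26, SE 0.23, adjusted p = 0.021). In each mouse it was higher in the array with more neutrophil transcripts. By label its difference was 2.84 in CD16/32HI and -0.32 in CD16/32LO, and without IL-15-/- replicate 1 it was 1.13 and 0.95. Vegfa, the angiogenic factor, was at 6.34 to 7.25 in IL-15+/+ and 7.14 to 8.15 in IL-15-/- arrays, where the genotypes overlapped, as they did in Slc2a1, the glucose transporter, and Car9, a carbonic anhydrase. Hilpda, a lipid droplet protein induced by hypoxia that is not in the list, was separated by 0.39 at 7.56, 7.18, 7.45 and 7.32 in IL-15+/+ and 8.74, 8.69, 8.11 and 7.95 in IL-15-/- arrays (log2 difference of 1.0, adjusted p = 0.208).

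**Figure D4:**
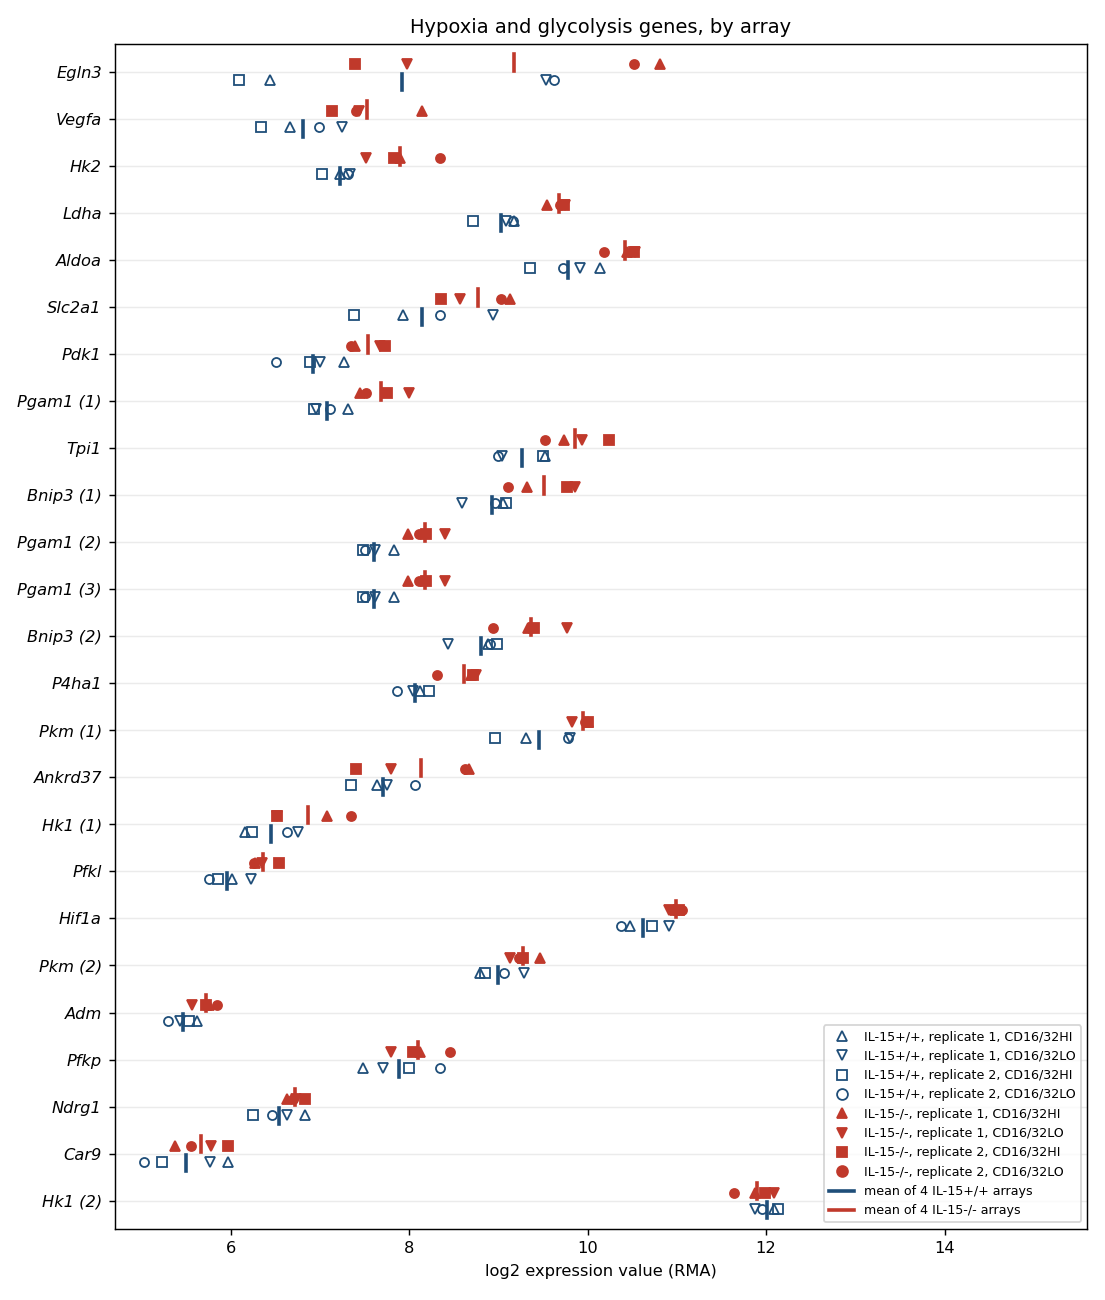
Log2 value of the 25 probe sets of hypoxia and glycolysis genes in the 8 arrays, ordered by the difference between genotypes, with numbers in brackets for genes with several probe sets. The 4 red IL-15-/- arrays of Ldha lie above all open blue IL-15+/+ arrays by at least 0.37, and those of Egln3 are mixed with them.

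The remaining wide gaps on the higher side were in genes of diverse function, and none of them was called. Abca5, a lipid transporter, was at 5.45, 5.80, 5.56 and 5.47 in IL-15+/+ and 6.29, 6.45, 6.78 and 6.29 in IL-15-/- arrays, a gap of 0.49. Mmp19, a matrix metalloproteinase, was at 6.49, 6.64, 6.47 and 5.79 in IL-15+/+ and 7.08, 7.58, 7.28 and 7.47 in IL-15-/- arrays, a gap of 0.44. Marveld2, the tight junction protein tricellulin, was separated by 0.37, the U5 small nuclear RNA gene Rnu5g by 0.38 and the vomeronasal receptor gene Vmn2r23 by 0.40, the last 2 at values under 5 in all arrays. Hamp, the iron hormone hepcidin, was separated by 0.38, yet its difference lay in 1 mouse, at 3.25, 3.32, 2.79 and 2.91 in IL-15+/+ and 3.72, 3.69, 7.85 and 8.75 in IL-15-/- arrays (0.43 in replicate 1 and 5.45 in replicate 2). Rnu5g belongs to a family of near-identical copies, and its value is uncertain for that reason.

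**Figure D5:**
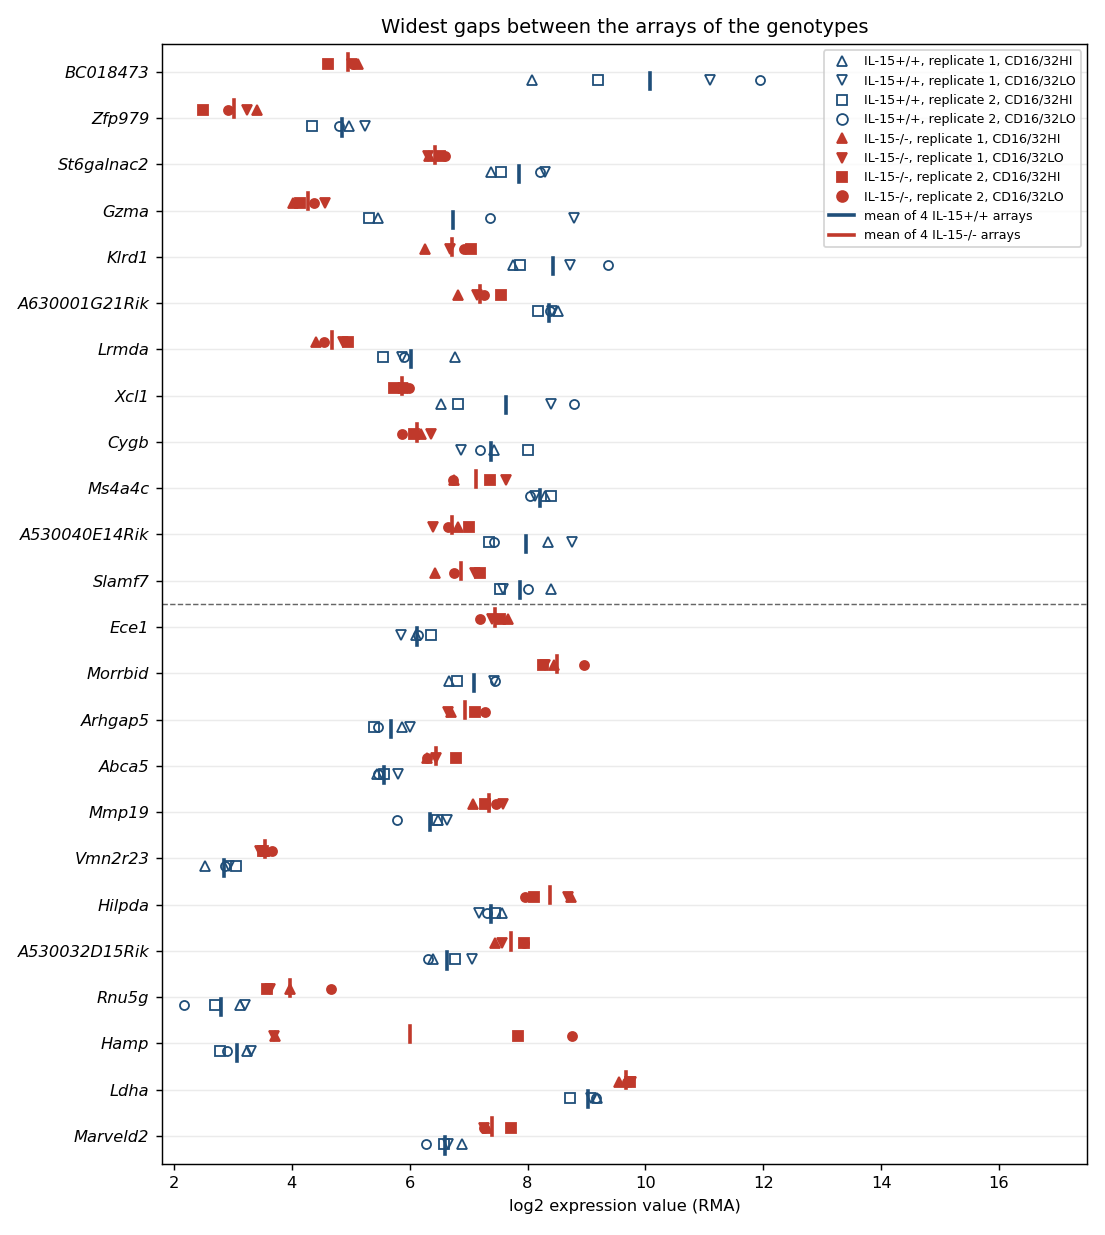
Log2 value in the 8 arrays of the 12 genes with the widest gap on the lower side (above the dashed line) and the 12 on the higher side, in order of the gap, open blue for IL-15+/+ and filled red for IL-15-/-. The gap runs from 2.96 in BC018473 to 0.33 in Slamf7 on the lower side and from 0.83 in Ece1 to 0.37 in Marveld2 on the higher side.

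The lists of other cell types held few called genes. Over all members 0.0479% were called higher and 0.11% lower, so few or no calls in lists of this size say little. Of 22 genes of monocytes and macrophages 0 were called, 15 were higher (73.7% of all members were higher) and the median was 0.21. Cd14, Pf4 and Csf1r, at log2 differences of 0.65, 0.66 and 0.44, differed most with Folr2. Fcgr3 and Fcgr2b, which encode the antigens of the sort, had log2 differences of 0.33 and -0.02 and were not called. Of 14 B cell genes 12 were lower, with a median of -0.28, but the median was -0.65 in replicate 1 and 0.11 in replicate 2. Over all members these medians were 0.002 and 0.24. Ms4a1 (CD20), for example, read 5.08, 8.09, 5.09 and 6.71 in IL-15+/+ and 5.54, 4.37, 4.38 and 6.52 in IL-15-/- arrays, with overlap. Dendritic cell genes had a median of -0.21 with Klrd1, shared with the NK list, as the only call. Cd209a was high in the IL-15+/+ mouse of replicate 2 (5.51, 5.69, 6.20 and 7.79 in IL-15+/+ and 5.53, 5.23, 5.09 and 5.05 in IL-15-/- arrays). The lists of mast cells, basophils and eosinophils (0.01), erythroid cells and platelets (0.10), and fibroblasts and endothelium (0.10) had 0 called genes. Their largest differences lay in Ppbp, a platelet chemokine (1.24), and Dcn, a matrix proteoglycan of fibroblasts (1.98), where the IL-15-/- mouse of replicate 2 alone was high, at 9.25 and 10.45, against 5.06 to 6.51 in the other arrays.

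Genes of MHC class II presentation and of the interferon gamma response had lower medians in replicate 1 than in replicate 2, as did all members (0.002 and 0.24). The class II median was below that of all members in both replicates, and the interferon gamma median clearly so in replicate 1 only. All 9 measured genes of MHC class II presentation were lower, with medians of -0.61 in replicate 1 and 0.02 in replicate 2. None was called, against 0.11% of all members called lower. H2-Ob and H2-Oa, the chains of the class II modulator expressed in B cells, differed most (-0.94 and -0.58), ahead of the classical chains H2-Ab1 and H2-Aa (-0.36 and -0.32). Of 17 probe sets of interferon gamma response genes 13 were lower, with a median of -0.18, -0.67 in replicate 1 and 0.22 in replicate 2. Cxcl9, the T cell chemokine induced by interferon gamma, was at 9.27, 6.48, 6.94 and 5.91 in IL-15+/+ and 5.02, 5.93, 7.20 and 6.12 in IL-15-/- arrays. It was high in the IL-15+/+ CD16/32HI array of replicate 1 and overlapped elsewhere (adjusted p = 0.72). The type I interferon list had a median of 0.08, and Rsad2 and Oasl1 of it had separated arrays, higher in IL-15-/-, by 0.04 and 0.02. They were 2 of 21 probe sets, against 3.19% of all members, and none was separated after centring or quantile normalization. The MHC class I list had a median of 0.03 over 34 probe sets.

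Cytokine receptor, proliferation, stress and survival genes held no called gene. Over all members 0.0479% were called higher and 0.11% lower, so the absence of calls in lists of this size says little. Of 19 probe sets of common gamma chain cytokines, receptors and their signal carriers 0 were called, and the median was 0.05. Il4ra, the IL-4 receptor, was at 0.59 and Il7r, the IL-7 receptor, at -0.51 on the scale of log2 differences. Of 34 cell cycle probe sets 0 were called, with a median of 0.07, -0.14 in replicate 1 and 0.30 in replicate 2, against 0.002 and 0.24 over all members. Immediate early genes had a median of 0.14 and unfolded protein and integrated stress response genes one of 0.19. Of the latter, 20 of 21 probe sets were higher, against 73.7% of all members. Asns, asparagine synthetase, differed most of them (6.32, 7.79, 6.06 and 6.83 in IL-15+/+ and 8.64, 6.42, 6.56 and 8.55 in IL-15-/- arrays, adjusted p = 0.468). The 23 probe sets of survival and death genes had a median of 0.24, with 19 higher (73.7% of all members were higher). Casp9, the initiator caspase of the mitochondrial pathway, was separated by 0.05 and in all 3 scalings, while Bcl2, which opposes it, had a log2 difference of -0.61 with overlap.

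The genes beside the targeted one were examined separately. The 25 member genes on either side of Il15 on chromosome 8 had 53 probe sets, of which 0 were called, 1 had separated arrays, and the median log2 difference was 0.10. All 1034 members on that chromosome had a median of 0.13, with 0 called, 27 separated on the higher and 3 on the lower side. Over all members the median was 0.12, and 3.19% were separated on the higher and 0.426% on the lower side. Only 0.0479% of all members were called higher and 0.11% lower, so the absence of calls here says little.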

How the data were processed

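Whole-transcript Affymetrix arrays of the CD16/32HI and CD16/32LO tail tumor fractions of 4 mice were used. The deposited log2 values had been summarized and normalized by the authors with RMA in Affymetrix Expression Console, per the labels, with version and genome build not given in the sources used here. They were used unchanged. The members and gene lists were chosen with earlier results of these data known. The 2 arrays of each mouse were averaged, and limma 3.58.1 (R 4.3.3) was fitted to the 4 mouse means with genotype as the only term, without a filter on low values. P-values were adjusted over all 20878 members (Benjamini-Hochberg) and called under 0.05. The SE of a difference comes from this fit, which borrows the spread of all members. The difference between populations was tested by applying the same fit to the CD16/32HI minus CD16/32LO value of each mouse. The number of mice, 2 per genotype, limits the precision. The gap is the distance between the nearest arrays of the genotypes where they do not overlap. The rule for named genes took up to 15 called members with the largest difference in each direction, the 12 widest gaps in each direction, the 4 largest differences of each list, Il15, Il1a, Il1b, Fcgr2b, Fcgr3 and, as a check of the mice, Xist and Y-linked genes, and other names (Klrk1, Gimap7, St6galnac1, Qpct, Eomes, Klri2, Klra8, Gzmb, Cd8a, Bcl2l11 and further list members) were chosen after their values were seen. Lists are described by counts and medians. Probe sets were named from the platform annotation, with chromosomes and gene order from the RefSeq gene table. Promoters are RefSeq windows of GRCm38.p6. Alternatives covered scaling, filters, the averaging of arrays, the replicate block, other variance models and leaving out each mouse. The fit was tested on simulated data.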

Additional observations from a re-analysis of the deposited data

Results flagged for a closer look

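Xist, an X-linked gene outside the members, differed between the genotypes by 6.17 on the log2 scale, as a signal outside the data compared here. It was high in all 4 IL-15-/- arrays and low in all 4 IL-15+/+ arrays, with Y-linked genes running the other way, so that sex and genotype cannot be told apart.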

How the results depend on the processing

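The 33 calls rested on how arrays were scaled and variances estimated. All 33 kept their direction wherever they were tested, always on the same arrays or a part of them. Against 10 higher and 23 lower calls, centring each array gave 0 and 3, quantile normalization 1 and 10, and a filter on low means 17 higher. A mean-variance trend gave 29 and 37, and averaged probe sets of a symbol 17 higher. All probe sets of the file, sex-linked ones included, gave 1 and 6, with only 1 of the 33 among them. Using 8 arrays with the mouse as a random block gave 0 and 0, a one-way model without moderated variance on the mouse means 1 and 9 at an unadjusted p under 0.05 and over 3-fold (the study applied its model within each population), and 0 and 0 with Benjamini-Hochberg adjustment. Centring with a trend, chosen after seeing the data, gave 1 and 11. The replicate block gave 138 and 68, with all 33 among them. The numbers share age and, for replicate 1, a normalization set, and deviations of same-numbered mice correlated at 0.299, over 2 pairs. Leaving out 1 mouse gave 11 to 112 higher and 23 to 44 lower calls, with the lone mouse assumed to vary like the other group, and 0 to 2812 calls for the difference between populations.

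Against 665 members with every IL-15-/- array above and 89 below, centring gave 324 and 292 and quantile normalization 232 and 311. A gap of at least 0.5 gave 3 and 9, and the filter 27 below. Leaving out 1 mouse gave 1213 to 6241 above and 363 to 1592 below. With fewer arrays to order these counts cannot fall, but the 2 sides rose unevenly. They were 6241 above and 376 below without IL-15+/+ replicate 1, and 1213 and 1592 without IL-15+/+ replicate 2. Of 114 named genes, log2 differences that turned sign when 1 mouse was left out ranged from -0.986 to 0.084 for Cr2, -0.054 to 0.452 for Siglecf, -0.155 to 0.608 for Car2, -0.062 to 4.027 for Dcn, -0.044 to 1.412 for Sparc, -0.277 to 0.913 for Oas2, -0.035 to 0.608 for Cmpk2, -0.997 to 0.119 for Gbp4 and -0.199 to 0.167 for Fcgr2b, which also stood at 0.1 with mean linear signals. None of these is among the 33. The cause of these changes was not tested.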

Other observations

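Further genes with separated arrays, chosen after their values were seen, included metabolic genes on the higher side. Nnt, the mitochondrial transhydrogenase, of which C57BL/6J mice carry a partly deleted copy, was at 6.79 to 7.34 in IL-15+/+ and 7.56 to 8.30 in IL-15-/- arrays (log2 difference of 0.80, adjusted p = 0.393). Slc16a3, the lactate exporter, was at 7.16 to 7.79 in IL-15+/+ and 8.06 to 8.54 in IL-15-/- arrays (log2 difference of 0.78, adjusted p = 0.393). Neither was called.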
